A study of Mus musculus with 6 samples.

Results

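Conjugating enzymes of the second phase of drug and steroid metabolism were examined in the liver of mice lacking Cpt2 in hepatocytes. The set comprises the UDP-glucuronosyltransferases (Ugt), the cytosolic sulfotransferases (Sult), the soluble glutathione S-transferases (Gst) and the microsomal glutathione S-transferases (Mgst). Members were chosen by symbol, and every matching gene with a probe set naming only it was taken. Their symbols begin Ugt1, Ugt2, Ugt3, Ugt8, Sult, Gst followed by a class letter, or Mgst. This gave 43 genes of 20242 measured, namely 17 Gst, 17 Sult, 6 Ugt and 3 Mgst genes. The choice was made with earlier results of these data known. The study compared 3 Cpt2KO mice, which carried floxed Cpt2 alleles (Cpt2f/f) and an Albumin-Cre transgene, with 3 WT mice, which carried the same floxed alleles without Cre. All were male, of C57BL/6 background and fasted for 24 hours, and each gave 1 array of liver RNA. The albumin promoter drives Cre in hepatocytes, so other liver cells keep Cpt2. Listed ages run from 9 to 11 weeks in WT and from 12 to 14 weeks in Cpt2KO, while the growth protocol gives 9 weeks for all mice, so that no listed age occurs in both groups. The listed ages rise by 1 week from each sample to the next, and whether they are the true ages is not known.

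These enzymes make lipophilic molecules soluble enough to leave the body in bile or urine. Ugt enzymes, in the membrane of the endoplasmic reticulum, transfer glucuronic acid from UDP-glucuronic acid to bilirubin, steroids, bile acids and drugs. Sult enzymes, in the cytosol, transfer sulfate from the donor PAPS to phenols, amines and hydroxysteroids. Gst enzymes join glutathione to electrophiles, including products of lipid peroxidation, and the liver is a main site of all these reactions. Their genes are known targets of the xenobiotic receptors CAR, PXR and AHR, of the antioxidant regulator NRF2 and of liver factors such as HNF1.

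Expression is given as the deposited log2 value of a probe set, so a difference of 1 is a 2-fold change. The level of a probe set also depends on its probes, so ranks among all genes serve here to mark dim and bright signals, not to compare amounts of RNA between genes. Over 20242 genes the arrays correlated at r = 0.988 to 0.989 within WT, 0.985 to 0.987 within Cpt2KO and 0.969 to 0.977 between genotypes. Cpt2 itself, which encodes carnitine palmitoyltransferase II of mitochondrial fatty acid oxidation, lay at 7.56, 7.72 and 7.63 in WT and at 6.48, 6.73 and 6.75 in Cpt2KO livers, so the targeted gene followed the labels. The 12 hepatocyte markers measured ranked at percentile 97.9 or above of all genes by mean signal. Of these, 9 (75%) were called lower and 0 higher, while 14.7% of all genes above the median level were called in either direction. The median log2 fold change of the 12 markers was -0.60. Their summed linear signal ran from 21176 to 23341 in WT and from 14857 to 16761 in Cpt2KO. Alb, the serum albumin gene, changed by -0.69 and Ahsg, Cps1 and Apoc3, with -0.33, -0.14 and -0.04, were not called. The calls of Ttr and F2 were lost in 5 and 3 of the 6 fits without 1 array. The part of these shifts in the changes described here was not tested, and in whole liver fewer hepatocytes and less RNA per hepatocyte cannot be told apart. Of the markers of other cell types, 0 of 4 cholangiocyte, 0 of 7 stellate, 0 of 6 lymphocyte and 0 of 5 neutrophil genes were called. The share called over all genes was 8.24%. Of 8 macrophage genes 7 had a fold change below 0 (median of the 8, -0.31). In 5 of them every Cpt2KO value lay below every WT value, as in 11.1% of all genes. Cd68 rose by 2.32 and Marco fell by 0.52, a call that was lost in 5 of the 6 fits without 1 array (adjusted p = 0.0506 to 0.121 by limma). Among 6 endothelial genes Lyve1 rose by 0.92. Summed signal ran from 737 to 1018 in WT and 961 to 1336 in Cpt2KO for the macrophage list, in which Cd68 was the gene with a fold change above 0, and from 821 to 925 and 973 to 1042 for the endothelial list.

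Of the 43 conjugation genes, 12 were called lower and 0 higher at an adjusted p under 0.05 (limma, Benjamini-Hochberg over all genes), which is 27.9% of the members. The other 31 were not called, and 14 of the 43 had a fold change above 0. In the whole comparison 8.24% of genes were called, 4.74% higher and 3.49% lower. The called genes were Gstt3, Gstt1, Gsta3, Gsta4, Gstk1 and Gstm7 among Gst genes, Sult1d1, Sult1b1, Sult1a1, Sult5a1 and Sult2a8 among Sult genes, and Ugt2a3. The changes of 7 of them were 2-fold or more, against 1.94% of all genes with a call of that size. The median log2 fold change was -0.21 over the 43 members and -0.01 over all genes, and the 3 Cpt2KO arrays lay entirely below the 3 WT arrays in 17 members and entirely above in 1 (11.1% and 13.9% of all genes).

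All 12 called genes had a mean level above the median of all genes, 4.12. Of the 26 members above that level 12 were called, against 14.7% of all genes above it. Of the 17 members at or below it 0 were called by limma, against 1.79% of all genes there, and 2 had an unadjusted p under 0.05, Sult1c2 and Sult2a7. The calls were fewest with listed age, itself in doubt, as a covariate, where 3 remained (Gstt3, Gstt1 and Ugt2a3), with every probe set tested together, where 4 did (Gstt3, Ugt2a3, Sult1b1 and Sult1d1), and with unmoderated statistics, where 6 did.

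**Figure D1:**
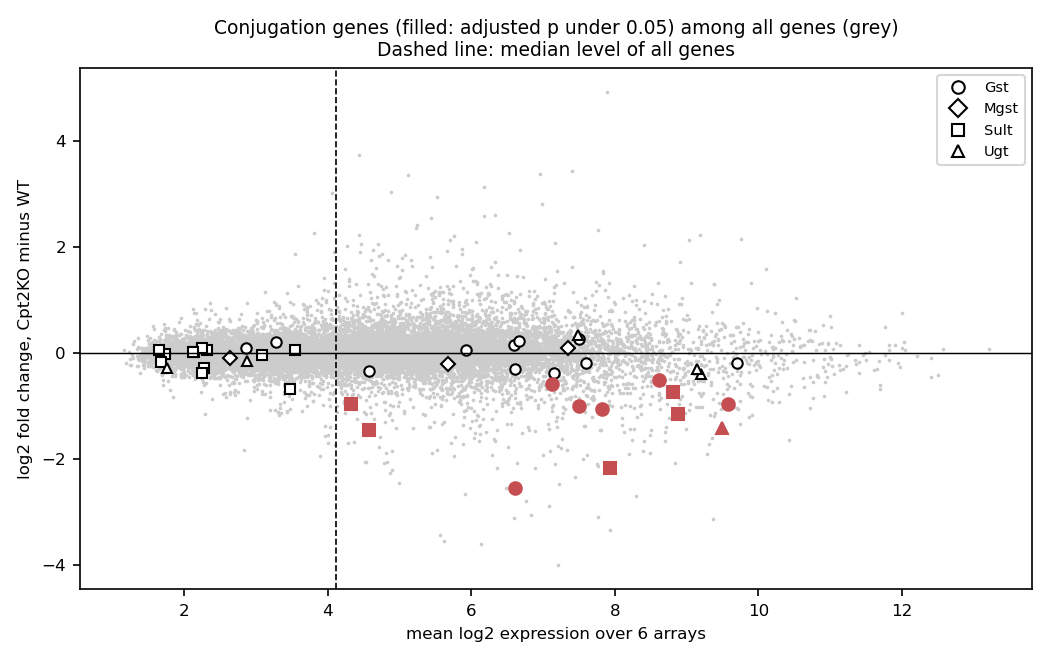
Log2 fold change (Cpt2KO minus WT) against mean log2 expression over the 6 arrays for 20242 genes (grey points) and the 43 conjugation genes by family (symbols, filled where adjusted p is under 0.05). All 12 filled symbols lie below 0 and to the right of the dashed line, the median level of all genes at 4.12.

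Start-site sequences of members that fell together are shown here because they bear motifs of factors known to drive liver and detoxification genes. Of the 43 members, 38 matched the RefSeq promoter table (build GRCm38.p6), and the others were Gsta4, Gstt2, Sult2a2, Sult2a7 and Sult4a1. The 250 bases before each start were searched on both strands for 5 motifs: GTTAAT, the core of the HNF1 motif; TGACNNNGC, the core of the antioxidant response element bound by NRF2; GCGTG, the core of the AHR element; TTGCNNAA for C/EBP factors; and CAAAGTCCA for HNF4. The motifs were chosen with the results known. Capitals mark the matches, on either strand, and each sequence reads 5′ to 3′ along the gene, ending at the base before the start. Ugt2a3 (chr5:87337196-87337445, minus strand) has GTTAAT at bases -54 and -47. Sult1d1 (chr5:87569007-87569256, minus strand) has it at -79, with GCGTG at -47. Gsta3 (chr1:21240335-21240584, plus strand) has matches to GTTAAT at -149, TTGCNNAA at -137 and TGACNNNGC at -121. Gstt3 (chr10:75781423-75781672, minus strand, the first of 2 listed starts) has no match and is shown for comparison as the member with the largest fall.
Ugt2a3: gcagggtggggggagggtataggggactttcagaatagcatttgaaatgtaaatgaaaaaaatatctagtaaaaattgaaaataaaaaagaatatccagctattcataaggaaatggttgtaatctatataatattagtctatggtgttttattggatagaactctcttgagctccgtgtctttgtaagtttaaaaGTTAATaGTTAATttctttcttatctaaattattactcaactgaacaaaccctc
Sult1d1: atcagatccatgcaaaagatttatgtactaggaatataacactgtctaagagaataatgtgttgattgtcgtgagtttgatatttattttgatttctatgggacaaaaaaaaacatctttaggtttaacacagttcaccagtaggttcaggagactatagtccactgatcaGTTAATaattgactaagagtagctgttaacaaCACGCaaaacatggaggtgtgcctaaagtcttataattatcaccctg
Gsta3: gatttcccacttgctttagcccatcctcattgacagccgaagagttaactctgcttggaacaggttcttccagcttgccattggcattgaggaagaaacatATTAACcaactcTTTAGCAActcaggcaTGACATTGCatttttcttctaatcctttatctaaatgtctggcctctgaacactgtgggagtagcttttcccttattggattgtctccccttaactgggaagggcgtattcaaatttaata
Gstt3: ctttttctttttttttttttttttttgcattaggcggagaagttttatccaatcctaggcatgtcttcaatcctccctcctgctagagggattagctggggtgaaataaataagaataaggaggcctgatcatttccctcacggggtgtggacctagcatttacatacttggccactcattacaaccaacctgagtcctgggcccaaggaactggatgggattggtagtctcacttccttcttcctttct

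GTTAAT was present before a start of 4 of the 11 called genes with a promoter entry (Gsta3, Sult1a1, Sult1d1 and Ugt2a3) and of 6 of all 38 members, against 6.43% of 32851 promoters. TGACNNNGC was present in 2 of the 11 (Gsta3 and Gstm7) and 4 of the 38, against 10.2% of promoters. GCGTG was present in 2 of the 11 and 8 of the 38, against 28.2%. TTGCNNAA was present in 3 of the 11 and 6 of the 38, against 9.56%, and CAAAGTCCA in 0 of the 38, against 0.38%. A gene counted here if any of its listed starts held the motif, and a match is a description of the sequence, not of binding.

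Among the glutathione S-transferases, the theta class held the largest fall. Theta enzymes act on small halogenated molecules and other electrophiles. Gstt3 lay at 7.87, 7.76 and 8.01 in WT and at 5.48, 5.07 and 5.46 in Cpt2KO, so that no Cpt2KO liver came within 2 log2 units of a WT liver. It fell 5.84-fold (log2 fold change -2.55, SE 0.14, adjusted p = 5.69e-05 by limma), to 17.1% of the WT signal. A second probe set naming Gstt3 was dim, at 1.68 to 2.78, and changed by 0.30 (SE 0.29). Averaging the 2 gave a fold change of -1.12, still called. Gstt1 lay at 8.19, 8.26 and 8.58 in WT and at 7.13, 7.35 and 7.40 in Cpt2KO, a 2.07-fold fall (-1.05, SE 0.13, adjusted p = 0.00234). The neighbouring theta genes were not called. Gstt2 lay between 6.38 and 6.80 in WT and between 6.55 and 6.95 in Cpt2KO, with overlapping groups (0.23, 95% interval -0.11 to 0.58). Gstt4 was dim and changed by 0.21 (interval -0.23 to 0.64).

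The 2 alpha-class genes measured alone also fell. Gsta4, whose enzyme removes 4-hydroxynonenal, a product of lipid peroxidation, lay at 7.63, 7.94 and 8.42 in WT and at 7.08, 6.85 and 7.05 in Cpt2KO. The difference was -1.01 (SE 0.19, adjusted p = 0.0138 by limma), with more spread among WT than among Cpt2KO livers, and it was not called without Cpt2KO replicate 2 (-0.94, adjusted p = 0.0538). Gsta3, which in the mouse detoxifies the epoxide of aflatoxin, lay at 9.87, 10.14 and 10.17 in WT and at 8.62, 9.03 and 9.66 in Cpt2KO. All Cpt2KO values were below WT, but they spread over about 1 log2 unit, and the call was marginal (-0.96, SE 0.24, adjusted p = 0.0445). It was lost in 5 of the 6 fits without 1 array, where the change ran from -0.72 without Cpt2KO replicate 1 to -1.05 without WT replicate 1 (adjusted p = 0.0706 to 0.133), all but the fit without Cpt2KO replicate 3. Gsta1 and Gsta2, known NRF2 targets, share 2 probe sets, 1 of them also with Gm3776, and these changed by 0.32 and 0.06 (adjusted p = 0.74 and 0.965 over all probe sets).

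Gstk1 encodes the kappa enzyme, found in mitochondria and peroxisomes. Its values were 8.97, 8.83 and 8.82 in WT and 8.39, 8.31 and 8.36 in Cpt2KO. Both groups were tight and apart, and the fall was 1.43-fold (-0.52, SE 0.09, adjusted p = 0.0111 by limma). Gstz1, whose zeta enzyme also isomerises maleylacetoacetate in tyrosine breakdown, lay at 7.32, 7.22 and 7.49 in WT and at 6.98, 6.86 and 7.06 in Cpt2KO. The groups did not overlap, and the difference of -0.38 had an adjusted p of 0.0774. In 1 of 17 alternative settings, genes above the median level, it was called lower (adjusted p = 0.0395 by limma). A probe set shared by Gstz1 and Pomt2 changed by -0.002, with overlapping groups.

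Of 6 genes of the mu class, whose enzymes take many xenobiotic epoxides and quinones, 1 was called. This share, 16.7%, is near the 14.7% of all genes above the median level, where all 6 lay. Gstm7 lay at 7.47, 7.36 and 7.42 in WT and at 6.87, 6.85 and 6.77 in Cpt2KO, 1.5-fold lower (-0.58, SE 0.09, adjusted p = 0.00578 by limma). By the brightest probe set of each, the other mu genes overlapped between groups. Gstm1 lay at 9.57, 9.75 and 10.09 in WT and at 9.71, 9.50 and 9.63 in Cpt2KO, a difference of -0.19 with a 95% interval of -0.52 to 0.13. A second probe set naming Gstm1 gave -0.17. Gstm2, Gstm3 and Gstm5 differed by -0.30, -0.20 and -0.35, and Gstm4 by 0.26 (interval -0.06 to 0.59). A second probe set of Gstm2 and one shared by Gstm3 and Gstm6 each changed by -0.36. In both, all Cpt2KO values lay below all WT values. Neither was called in the fit of every probe set (adjusted p = 0.596 and 0.592 by limma). Mu genes are close in sequence, so RNA of one can bind probes of another.

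Omega, pi and microsomal genes were not called. Gsto1, whose enzyme reduces dehydroascorbate, differed by 0.15 (95% interval -0.10 to 0.40), the dim Gsto2 by 0.09 and Gstp3 of the pi class by 0.05 (-0.22 to 0.32). Gstp1 and Gstp2 share 2 probe sets, which changed by -0.19 and -0.04. Mgst1, the microsomal enzyme abundant in liver endoplasmic reticulum and outer mitochondrial membrane, lay at 7.27, 7.25 and 7.39 in WT and at 7.52, 7.24 and 7.43 in Cpt2KO, with an interval of -0.15 to 0.34 around 0.09. Mgst3 differed by -0.21 (-0.48 to 0.06) and the dim Mgst2, which can form leukotriene C4, by -0.10.

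**Figure D2:**
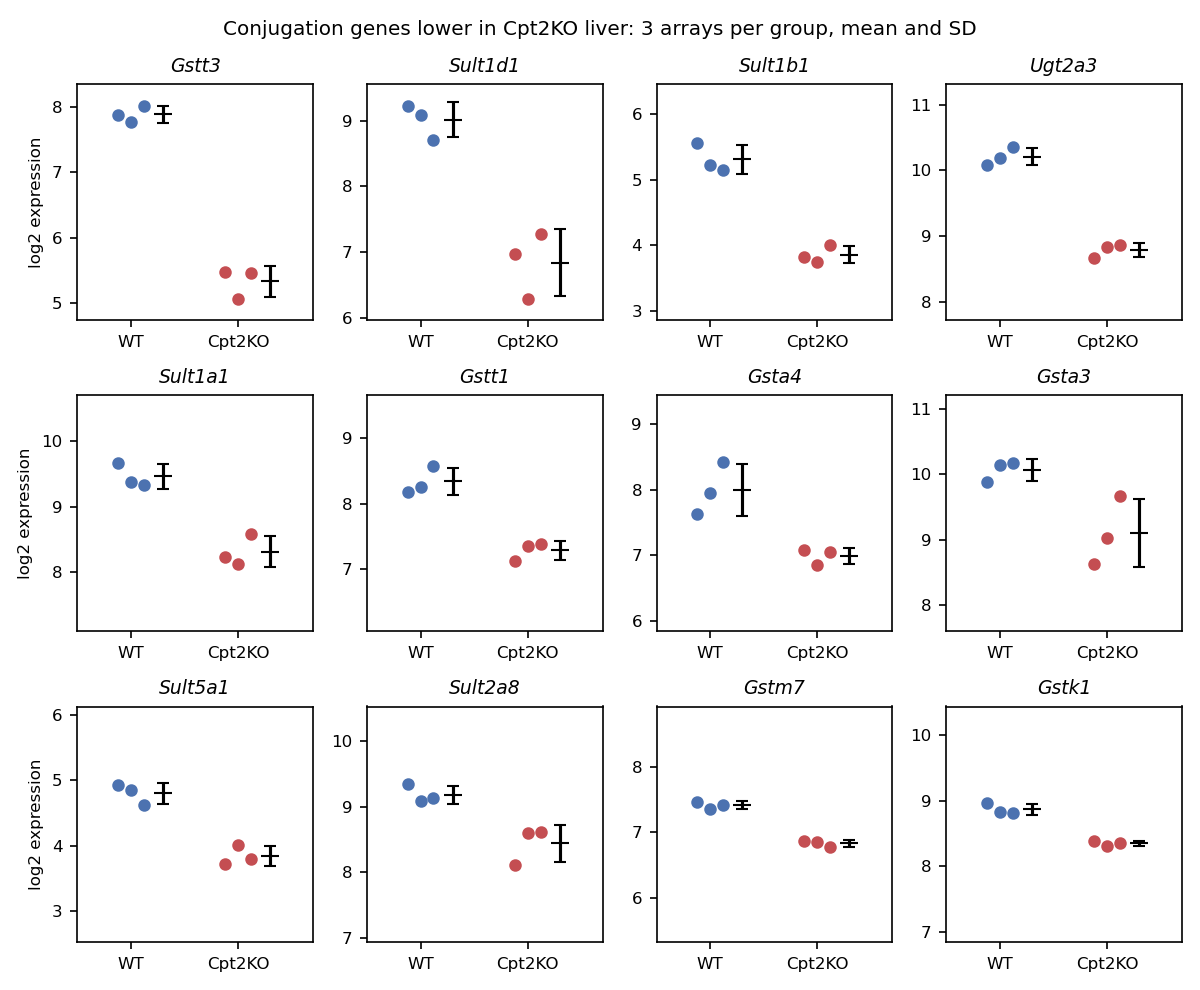
Log2 expression of the 12 called conjugation genes in each WT (blue) and Cpt2KO (red) array, with group means and SD (black, n = 3), on axes of equal span ordered by size of change. In every panel all 3 Cpt2KO values lie below all 3 WT values, from Gstt3 with a difference of -2.55 to Gstk1 with -0.52, and Gsta3 and Sult1d1 spread most among the Cpt2KO arrays.

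Among the sulfotransferases, 3 of 6 genes of the phenol and amine family Sult1 fell (50%), and its median was -0.91. The share called was 8.24% over all genes and 14.7% over those above the median level. Sult1d1, which sulfates catecholamines in the mouse, lay at 9.23, 9.10 and 8.72 in WT and at 6.97, 6.28 and 7.27 in Cpt2KO. The highest Cpt2KO liver was more than 1 log2 unit below the lowest WT liver, and the mean fell 4.52-fold to 22.1% of WT (-2.18, SE 0.25, adjusted p = 0.00143 by limma). Sult1b1, whose enzyme acts on thyroid hormones, lay at 5.57, 5.22 and 5.14 in WT and at 3.83, 3.74 and 4.002 in Cpt2KO, a 2.74-fold fall with tight groups (-1.45, SE 0.14, adjusted p = 0.00053). Sult1a1, the main phenol sulfotransferase, lay at 9.67, 9.37 and 9.33 in WT and at 8.23, 8.12 and 8.57 in Cpt2KO (2.22-fold, -1.15, SE 0.15, adjusted p = 0.00253). Sult1c2 lay at 3.59, 3.66 and 4.21 in WT and at 3.17, 2.88 and 3.37 in Cpt2KO. Its groups did not overlap but its difference of -0.68 had an adjusted p of 0.0699. In 3 of 16 alternative settings it was called lower (adjusted p = 0.0252 to 0.0495 by limma). The estrogen sulfotransferase gene Sult1e1 and Sult1c1 were dim and differed by -0.28 and 0.02, with intervals of -0.59 to 0.03 and -0.20 to 0.25.

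In the hydroxysteroid family Sult2, 1 of 5 genes was called (20%, against 8.24% of all genes). Sult2a8, a bile acid sulfotransferase of mouse liver, lay at 9.34, 9.08 and 9.12 in WT and at 8.11, 8.60 and 8.61 in Cpt2KO, a 1.67-fold fall (-0.74, SE 0.15, adjusted p = 0.0207 by limma). The call was lost without WT replicate 1 (-0.66, adjusted p = 0.0728) and without WT replicate 3 (-0.77, adjusted p = 0.0563). Sult2a2, Sult2a6 and Sult2a7 were dim, at 1.61 to 2.75 in all arrays, and differed by 0.05, -0.02 and -0.39. Sult2b1, the cholesterol sulfotransferase of skin, differed by 0.05 (95% interval -0.22 to 0.31). Sult2a1, Sult2a2 and Sult2a5 share 2 probe sets with C730007P19Rik, which changed by 0.10 and -0.03.

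Sult5a1, for which little function is known, lay at 4.93, 4.86 and 4.62 in WT and at 3.73, 4.01 and 3.80 in Cpt2KO, a 1.94-fold fall (-0.96, SE 0.12, adjusted p = 0.00242 by limma). The groups were clearly apart. Sult3a1, Sult3a2, Sult4a1, Sult6b1 and Sult6b2 lay between 1.53 and 3.34 in all 6 arrays and differed by -0.17 to 0.10. Sult4a1 is known from brain, and RMA compresses changes in this range of signal.

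Among the glucuronosyltransferases, Ugt2a3 fell and the other 5 genes were not called. The share called was 16.7%, against 8.24% of all genes and 14.7% of those above the median level. Ugt2a3, whose human counterpart glucuronidates bile acids, lay at 10.09, 10.19 and 10.35 in WT and at 8.67, 8.83 and 8.86 in Cpt2KO. The groups were more than 1 log2 unit apart, and the fall was 2.68-fold (-1.42, SE 0.11, adjusted p = 0.000243 by limma). With Gstt3 it was called in all 17 alternative settings. The Ugt2b genes glucuronidate steroids and drugs. Ugt2b1 lay at 9.32, 9.55 and 9.32 in WT and at 8.93, 9.13 and 8.96 in Cpt2KO, non-overlapping, with a difference of -0.39 and an adjusted p of 0.0713. In 1 of the 17 settings, genes above the median level, it was called lower (adjusted p = 0.0361 by limma). Ugt2b34 overlapped between groups and differed by -0.30 (95% interval -0.60 to 0.01). Ugt2b35 lay at 7.23, 7.29 and 7.41 in WT and at 7.64, 7.63 and 7.70 in Cpt2KO. It was the member with every Cpt2KO value above every WT value, and its difference of 0.34 (interval 0.13 to 0.56) had an adjusted p of 0.0646. Among genes above the 25th percentile of level it was called higher (adjusted p = 0.0496).

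Ugt2a1, known from olfactory epithelium, was dim and differed by -0.28 (95% interval -0.75 to 0.19). Ugt8a, which makes galactosylceramide rather than detoxification products, was dim too, with -0.14 (-0.35 to 0.06). Ugt1a genes, which include the bilirubin enzyme gene Ugt1a1, share their last exons and had no probe set of their own. The 3 probe sets that name 7 or 8 of them together changed by -0.71, -0.54 and -0.51, with all Cpt2KO values below all WT values in each. They were read from the fit of every probe set and not called there (adjusted p = 0.174, 0.298 and 0.462 by limma). That fit is stricter than the main one, as it called 4 of the 43 members against 12. The probe set shared by Ugt3a1 and Ugt3a2 lay at 9.31, 9.34 and 9.18 in WT and at 8.36, 8.61 and 8.58 in Cpt2KO. It changed by -0.76 and was not called in the same stricter fit (adjusted p = 0.131 by limma). Those shared by Ugt2b5, Ugt2b36, Ugt2b37 and Ugt2b38 in different combinations changed by -0.40, 0.13 and -0.07.

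**Figure D3:**
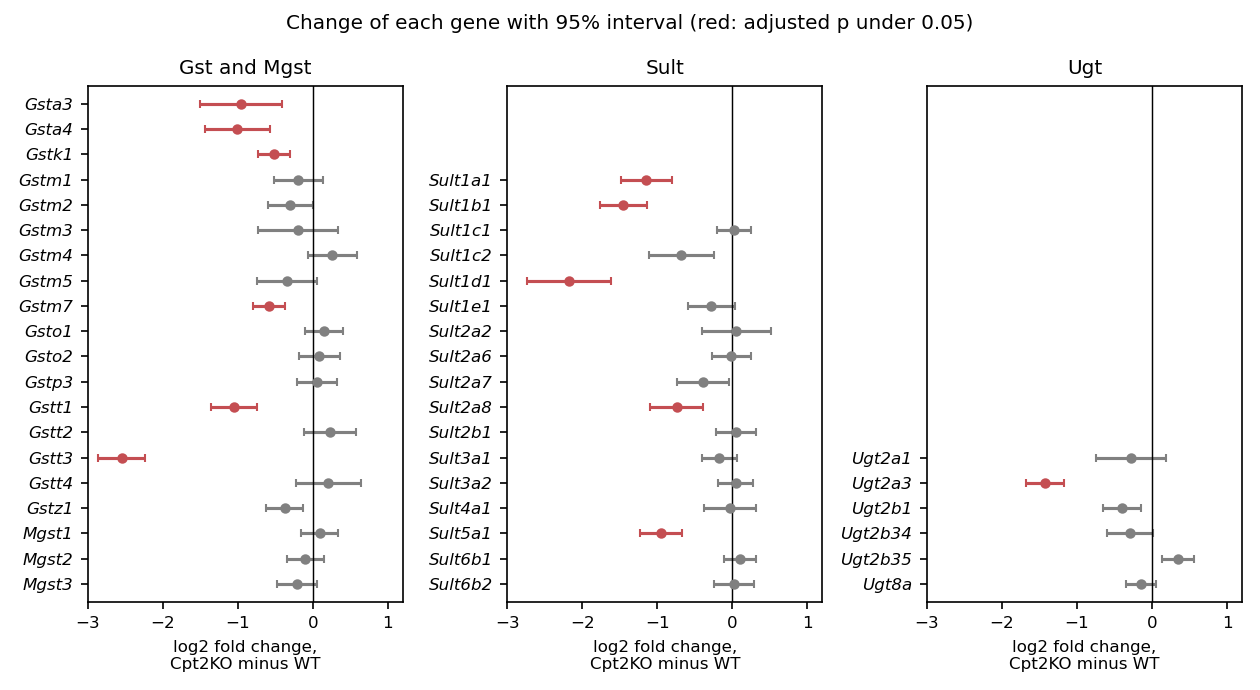
Log2 fold change (Cpt2KO minus WT) of the 43 conjugation genes by family, with 95% intervals from the moderated test and red marks where adjusted p is under 0.05. The values run from -2.55 for Gstt3 to 0.34 for Ugt2b35, and all 12 red points lie below 0.

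Chromosomal order was taken from the RefSeq gene table. On chromosome 10 the theta genes lie in the order Gstt3, Gstt1, Gstt4 and Gstt2, with changes of -2.55, -1.05, 0.21 and 0.23. On chromosome 5 the Ugt2 genes are followed by Sult1b1, Sult1d1 and Sult1e1. Of 13 genes in that row 8 had a probe set of their own and 3 were called, Ugt2a3 (-1.42), Sult1b1 (-1.45) and Sult1d1 (-2.18), while Ugt2a1 between Ugt2a3 and Sult1b1 and Sult1e1 at the end (both -0.28) were dim and not called. On chromosome 3, 6 of 7 mu genes were measured alone and Gstm7 was the called member, next to Gstm5 with -0.35. Over all genes 8.24% were called, and 14.7% of those above the median level. Differences between neighbours were not tested.

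**Figure D4:**
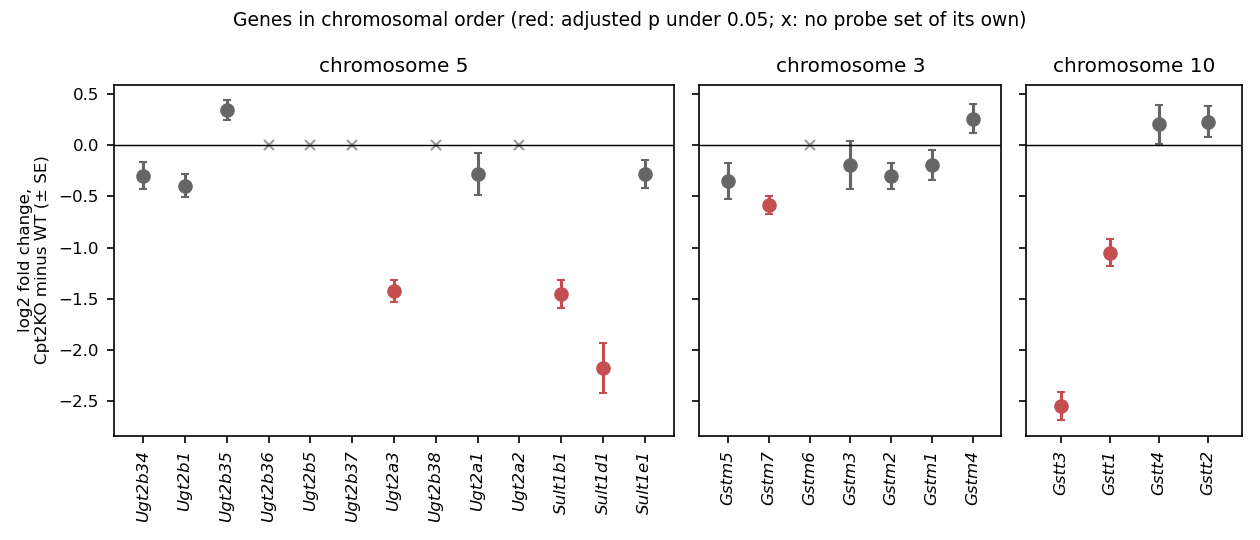
Log2 fold change (Cpt2KO minus WT, with SE) of protein-coding conjugation genes in their order along chromosomes 5, 3 and 10, with no distances drawn. Red points passed adjusted p under 0.05 and crosses on the 0 line are genes without a probe set of their own. Gstt3 and Gstt1 lie at -2.55 and -1.05 beside Gstt4 and Gstt2 at 0.21 and 0.23.

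The genes that supply the donors moved in different directions. Papss2, the PAPS synthase of liver, lay at 8.65, 8.68 and 8.58 in WT and at 7.53, 7.50 and 7.95 in Cpt2KO, a 1.97-fold fall (-0.98, SE 0.13, adjusted p = 0.00331 by limma). It was the called gene of 6 measured for sulfate supply (16.7%). The share called was 8.24% over all genes and 14.7% over those above the median level. The median of the 6 was -0.23, and Papss1 differed by -0.23 and the Golgi PAPS transporter Slc35b2 by -0.24. Papss2 has 3 probe sets, and their mean changed by -0.54 and was not called (adjusted p = 0.0629 by limma). The call was also lost without moderation (0.0612), when all probe sets were tested (0.105) and with listed age in the fit (0.148). Ugdh, which makes UDP-glucuronic acid, lay at 7.02, 7.33 and 7.42 in WT and at 8.33, 8.58 and 8.81 in Cpt2KO, a 2.49-fold rise (1.32, SE 0.15, adjusted p = 0.00169). The Ugdh call was likewise lost without moderation (0.054), when all probe sets were tested (0.0639) and with listed age in the fit (0.302, with a change of 0.66). Of the other 3 genes of the Ugdh list, Ugp2 and Uxs1 differed by 0.13 and 0.11 and the transporter Slc35d1 by -0.05.

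For glutathione, 3 of 10 measured genes rose and 3 fell (60% called), with a median of 0.35. The share called was 8.24% over all genes and 14.7% over those above the median level. Gsr, glutathione reductase, rose from 7.65, 7.81 and 7.79 in WT to 8.42, 8.29 and 8.42 in Cpt2KO (0.62, SE 0.10, adjusted p = 0.00582 by limma). Chac1, which breaks glutathione down, rose by 0.77 (adjusted p = 0.0297), and Oplah, the oxoprolinase of the same cycle, by 0.45. Chac1 was not called in 5 of the 6 fits without 1 array (adjusted p = 0.0511 to 0.0966) and Oplah was not called in any of the 6 (0.0556 to 0.106). Cbs, at the entry of the pathway from homocysteine to cysteine, fell by 0.85 (adjusted p = 0.0024) and Ggt6 by 0.83 (adjusted p = 0.00176). The fall of Ggct, 0.45, was lost in 5 of those 6 fits (adjusted p = 0.0691 to 0.147) and for the mean of its probe sets (-0.32, 0.242). Gclc and Gss, the enzymes of glutathione synthesis, differed by 0.37 and 0.38 and were not called (adjusted p = 0.267 and 0.0576). For Gss every Cpt2KO value lay above every WT value. In 4 of 17 alternative settings Gss was called higher (adjusted p = 0.02875 to 0.04727 by limma).

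The share called was 8.24% over all genes and 14.7% over those above the median level. Of 13 other conjugating and detoxifying enzymes, 5 fell and 0 rose (38.5% called), with a median of -0.18. All 5 were transferases, namely Inmt, an amine methyltransferase (-2.70), Hnmt, which methylates histamine (-1.71), Nnmt, which methylates nicotinamide (-1.20), Tpmt, which methylates thiopurines (-1.02), and Baat, which joins bile acids to glycine or taurine (-0.97). Nnmt lost its call without WT replicate 2 (adjusted p = 0.0524 by limma), Cpt2KO replicate 1 (0.055) or Cpt2KO replicate 3 (0.0605). The epoxide hydrolase genes Ephx1 and Ephx2 differed by 0.24 and 0.16, and the N-acetyltransferase genes Nat1 and Nat2 by -0.13 and 0.25.

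Removal of conjugates was represented by 5 genes, of which 40% were called, against 8.24% of all genes. All 5 lay above the median level, where 14.7% of all genes were called. The called genes were 2 lysosomal sulfatase genes that rose, Arsg by 1.23 (adjusted p = 0.00277 by limma) and Arsa by 0.61 (adjusted p = 0.00973). Gusb, the lysosomal glucuronidase, differed by -0.21. The sulfatase gene Sts, also on this list, had no probe set of its own. Whether Arsg or Arsa acts on products of the Sult enzymes was not tested. Of 8 exporters, 1 was called, the bile salt pump Abcb11 (-2.35, adjusted p = 3e-05 by limma). That is 12.5%, against 8.24% of all genes and 14.7% of those above the median level. The conjugate exporters Abcc2, Abcc3 and Abcg2 differed by 0.05, 0.24 and 0.09, with 95% intervals of -0.25 to 0.35, -0.06 to 0.55 and -0.21 to 0.38.

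Among 19 regulators, 3 fell and 0 rose, with a median of -0.11. The share called was 15.8%, near the 14.7% of all genes above the median level, where all 19 lay. Ahr, the aryl hydrocarbon receptor, lay at 6.87, 7.07 and 6.88 in WT and at 5.70, 5.98 and 6.11 in Cpt2KO, a 2.02-fold fall (-1.01, SE 0.13, adjusted p = 0.00234 by limma). Onecut1, which encodes HNF6, fell by 1.34 (adjusted p = 0.00975), and Nr1h4, the bile acid receptor FXR, by 0.67 (adjusted p = 0.013, and 0.0512 without WT replicate 2). Nr1i3, which encodes CAR, differed by -0.45 (95% interval -0.87 to -0.02, adjusted p = 0.22) and Nr1i2, which encodes PXR, by 0.32 (0.06 to 0.58, adjusted p = 0.145). Nfe2l2, which encodes NRF2, differed by 0.01 (-0.31 to 0.33) and Hnf4a by -0.20.

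Of 13 sentinel targets of these receptors, 3 rose and 1 fell (30.8% called). The share called was 8.24% over all genes and 14.7% over those above the median level. The NRF2 targets Cbr3, Srxn1 and Hmox1 rose by 2.23, 1.34 and 1.09, and the AHR target Cyp1a2 fell by 1.06 (adjusted p = 3e-05, 0.00103, 0.000978 and 0.00288 by limma). Nqo1, another NRF2 target, differed by 0.34, and the AHR targets Cyp1a1, Ahrr and Tiparp by -0.10, 0.06 and 0.29. Cyp2b10, the usual CAR target, differed by -0.38 over all arrays and was not called (adjusted p = 0.635 by limma). Its change ran from -0.82 to 0.62 over 16 alternative settings, with a call in 1 of them. That was the fit without Cpt2KO replicate 1, with -0.82 (adjusted p = 0.00758).

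**Figure D5:**
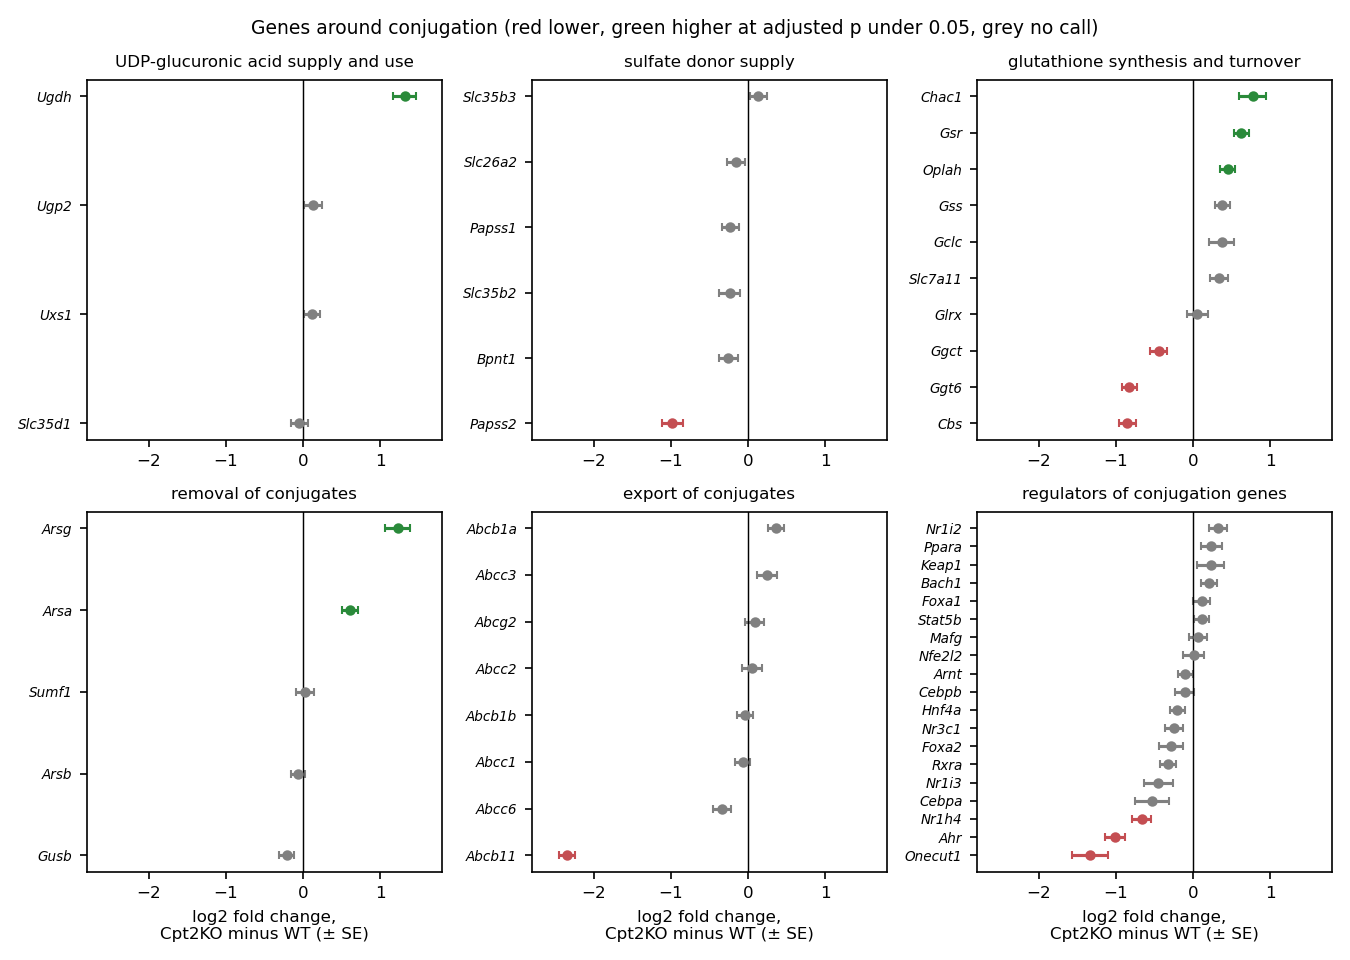
Log2 fold change (Cpt2KO minus WT, with SE) of genes around the conjugating enzymes, grouped by role. Ugdh rose by 1.32 and Papss2 fell by 0.98, glutathione genes went both ways, and Ahr, Onecut1 and Nr1h4 were the called regulators, each lower.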

How the data were processed

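Liver RNA of 6 mice was measured on 1 array each. Each probe set has 1 deposited log2 value. Partek, RMA and build mm9 are named per the submitters' processing notes, with options not given in the sources used here. By its construction RMA compresses changes of dim probe sets, and a probe set averages over a transcript. Of 115050 probe sets, 25469 named 1 gene, 2286 several and 87295 none in the platform annotation, and Entrez identifiers of 24878 matched the RefSeq table of GRCm38.p6, used for names and gene order (0 symbols changed). For each of 20242 genes the brightest probe set by mean over the 6 arrays was kept. Of 46 probe sets naming a member alone 43 stood for a gene, and 17 further ones named members together with other genes. These 17 and the second probe sets were read from a fit of every probe set.

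Cpt2KO was compared with WT by the moderated two-sided test of limma 3.58.1, run in R 4.3.3 without covariates (4 residual and 4.23 prior degrees of freedom), with Benjamini-Hochberg adjustment over all genes and a threshold of 0.05. SE and 95% intervals are those of the moderated test. The titles call the samples biological replicates, and with 3 arrays per group their number limits the precision. Members and gene lists were chosen with earlier results of these data known. Named were Cpt2, each called member, the largest change in each subfamily and up to 4 called genes per list, with further genes by their values. Alternatives were quantile normalization, median centring, 2 filters on dim genes, the mean of a gene's probe sets, every probe set tested, a prior with a trend, statistics without moderation, weighted arrays, the replicate number as a block, listed age in the fit and leaving out each array. Same-numbered WT and Cpt2KO arrays deviated from their group means with correlations of 0.07, 0.18 and -0.08 over genes, so the numbers were not taken as pairs.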

Additional observations from a re-analysis of the deposited data

How the results depend on the processing

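Members were called lower in 10 to 12 cases when 1 array was left out, and in 4 when all probe sets were tested, 6 without moderation and 3 with listed age, which may not be the true age, in the fit. Gst calls were 4 to 6 without 1 array and 1, 3 and 2 in those settings, and Sult calls 4 to 5 and 2, 2 and 0. Ugt calls were 1 without any 1 array, 2 among genes above the 25th percentile of level and 3 above the median level, 1 of each higher (Ugt2b35). All genes called were 1036 to 1305 without 1 array (1036 without WT replicate 2, 1059 without WT replicate 3), and 189, 652 and 83 in the same 3 settings. Cpt2 changed by -1.03 to -0.90 without 1 array, and missed the threshold when all probe sets were tested (-0.99, adjusted p = 0.0692 by limma) and with listed age (-1.24, 0.0753). The replicate numbers share no pairing, and as a block they left the members' count at 12, with Sult1c2 gained (adjusted p = 0.0252) and Sult2a8 lost (0.0544). Over 701 values of members in the alternatives, 35 lost a call, 7 gained one and 0 changed direction with a call, while 28 changed sign with no call on either side. The causes were not tested. Quantile normalization ended the calls of Gsta3 and Sult2a8 and median centring that of Gsta3. Detection above background was not assessed, so dim genes are not called absent.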
